A study of Rattus norvegicus with 6 samples.

Results

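The genes that encode the proteins of the cytosolic ribosome were followed in rat synovial fibroblast-like cells (RASFLs), which adhere and grow out of digested joint lining, under 3 sera. Members were chosen by name alone, as every symbol that starts with Rpl or Rps and goes on with a number and at most a short suffix, together with Rpsa, Rplp0, Rplp1 and Rplp2. This gave 80 genes of the 16499 symbols measured, 32 of the small subunit, 45 of the large subunit and 3 of the P stalk. They fill 83 of the 17221 transcript rows deposited, and the most abundant row stands for each gene.

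All cells came from the synovium of female Wistar rats with arthritis induced by collagen, and cells were divided over 3 cultures, with 2 libraries of poly(A)-selected RNA each. The labels mark these libraries RA1 and RA2 in every serum, taken here as 2 sources of cells and called rat 1 and rat 2; that each mark stands for a single animal is not spelled out. The medium held fetal bovine serum (FBS), blood serum of untreated animals (MS-), or blood serum of animals given mechanical stimulation by needle, drawn at day 18 (MS+); the labels call this treatment acupuncture. How many animals gave each serum is not in the labels, so the replicate is the source of the cells and not a serum donor. With serum as the only term, p-values measure the spread between these 2 sources. With the rat as a block, the mean difference between the sources is taken out, and p-values measure the spread that remains. For the MS- serum the study gives a time before any therapy in its methods and untreated arthritic animals elsewhere, and one label field calls these rats healthy. FBS differs from both rat sera in species and in being fetal, and from the MS+ serum also in the stimulation of the donors. Within a comparison with FBS these cannot be told apart.

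A ribosome is built from ribosomal RNA and a set of proteins, each usually needed once per particle, so the genes of these proteins are known to be expressed in concert. The small subunit reads the messenger RNA and the large subunit joins the amino acids, while the P stalk, formed by Rplp0 with Rplp1 and Rplp2, recruits the factors that drive each step. The messenger RNAs of these genes are known for a run of pyrimidines (C or T) that starts at their first base, the 5′ terminal oligopyrimidine tract, through which growth signals, mTOR among them, govern their translation. In fibroblasts, serum is a classical stimulus of ribosome production.

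The starts of the members the results turn on are shown for this feature. Each window holds 10 bases before the annotated start and 20 bases from it, on the gene's own strand, from the RefSeq promoter table of build GRCr8, so that position 11 is the first base of the transcript. Capitals mark the unbroken run of C and T that begins at that base.
Rpl10a: cttctgccttCTTTTCCggttcccgcagcc, chr20:6390523-6390552, plus strand
Rpl3: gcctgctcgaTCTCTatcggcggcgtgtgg, chr7:113507971-113508000, minus strand
Rps9: cggccacgttTCTCTTTgtcacgggcctga, chr1:74430418-74430447, minus strand
Rpl10: gtgggagcgtCTCTTTTCCTCTggcgcggt, chrX:157205840-157205869, plus strand
Rpl6: ttacatcactagatggcgggtgaaaaggcg, chr12:41011671-41011700, minus strand
Rplp0: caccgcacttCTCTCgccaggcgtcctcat, chr12:46718371-46718400, minus strand
Rplp1: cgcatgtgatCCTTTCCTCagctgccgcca, chr8:71290853-71290882, minus strand
Rplp2: cgccgccggaCgccgccgaggtcgcacgcg, chr1:205975911-205975940, plus strand
Rpl24: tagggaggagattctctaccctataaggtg, chr11:58128386-58128415, minus strand
Rps4y2: cagctctcctCactcgcttgtgctctggga, chr4:183000903-183000932, plus strand
The table held 66 annotated starts for 65 of the members. A run of 5 or more pyrimidines from the first base stood at 34 of these 66 starts (51.5%), against 1590 of 33469 starts of all genes in the table (4.75%). The first base was C at 53% of the members' starts and at 24.1% of all starts. The starts are annotated and were not measured in these cells, so a window with a run of 0, such as that of Rpl6 or Rpl24, says only that these letters are not at this position.

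Depth was similar among the libraries, from 5463316 to 5991889 reads, and 3 reads in a library, taken as the floor of detection, came to 0.491 to 0.551 CPM, the read count scaled to the TMM-normalised library size. Of 13 fibroblast markers, 11 were at 1 CPM or more in every library, while Dcn and Lum were below 1 CPM throughout, Dcn with no read in 4 libraries. Of the 7 macrophage markers measured, 4 had no read in any library, Ptprc among them, and Cd14 made up most of the summed level of this list (13.8 to 20.5 CPM). The 3 endothelial markers summed to at most 1.47 CPM, and all 5 red cell and lymphocyte markers were at 0.

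Ribosomal protein transcripts took 1.18% to 1.58% of the reads of a library. Their summed level was 15505 and 13196 CPM in FBS (rat 1, then rat 2, as for every pair of values hereafter), 12770 and 11895 CPM in MS-, and 13467 and 13413 CPM in MS+. The FBS library of rat 1 was the highest and the MS- library of rat 2 the lowest, and neither MS- library reached the lowest value of the other sera. The mean was 14350 ± 1633 CPM in FBS, 12333 ± 618 CPM in MS- and 13440 ± 38.4 CPM in MS+ (SD, n = 2 each), so the MS- level was 85.9% and the MS+ level 93.7% of that in FBS. Without Rplp0 and Rpsa, the most abundant members in CPM, these shares were 84.9% and 93.1%. The means of the small subunit genes stood at 85.7% of FBS in MS- and 93.1% in MS+, those of the large subunit at 83.9% and 93.6%, and those of the P stalk at 94.4% and 95.6%. In bulk RNA, fewer cells of a type and less RNA per cell cannot be told apart.

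**Figure D1:**
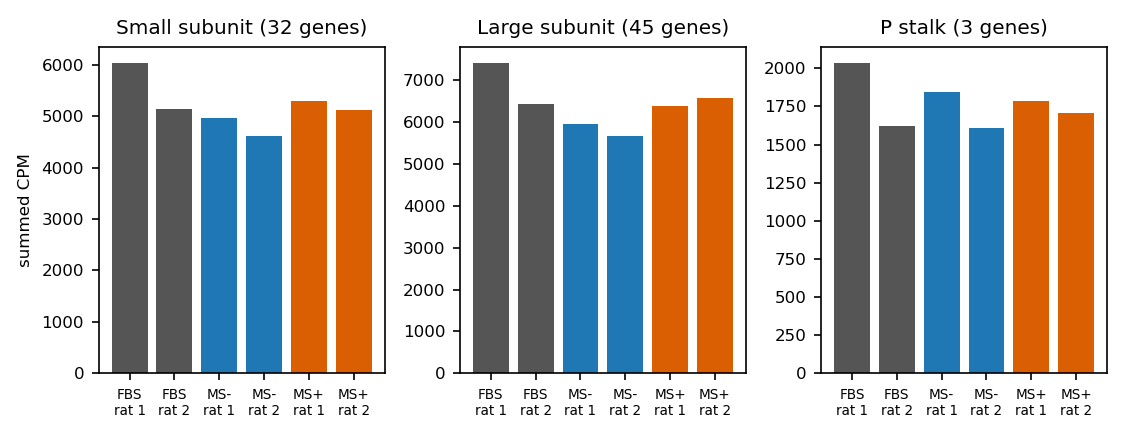
Summed CPM (y axis, from 0) of the genes of the small subunit, the large subunit and the P stalk in each of the 6 libraries (x axis; grey FBS, blue MS-, orange MS+; 1 bar per library, no error). For both subunits the bars of MS- are lower than all others, and for the P stalk the libraries of rat 1 stand above those of rat 2 in every serum.

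The summed fibroblast marker list stood in the same order of sera as the mean summed ribosomal protein level. For the latter, the FBS library of rat 2 (13196 CPM) lay below both MS+ libraries. The marker sum did not overlap between sera, at 81217 to 88071 CPM in FBS, 71300 to 73988 CPM in MS+ and 62858 to 65465 CPM in MS-. This sum is carried by the collagens, Col1a1 at 40458 and 34297 CPM in FBS, 23563 and 23624 CPM in MS-, and 28736 and 25507 CPM in MS+. Other abundant markers ran otherwise: Vim was lowest in FBS, at 11486 and 11981 CPM, with 12544 and 14340 CPM in MS- and 13972 and 16559 CPM in MS+, and Pdgfrb was highest in MS-, at 2500 and 2518 CPM. The part of these abundant transcripts in the ribosomal protein result was not tested.

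A test across genes was possible for 78 members, since Rpl3l and Rps4y2 did not reach 1 CPM in both libraries of any serum. Taken relative to each gene's own mean on the log2(CPM + 1) scale, the members' median was 0.21 in the FBS library of rat 1 and -0.02 in that of rat 2. It was -0.07 and -0.15 in the MS- libraries, and -0.01 and 0.00 in the MS+ libraries. In the FBS library of rat 1, 77 of the 78 lay above their own mean, and in the MS- library of rat 2, 4 did. Over all 80 members, the FBS library of rat 1 was the highest of the 6 for 60 genes, and the MS- library of rat 2 the lowest for 49.

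**Figure D2:**
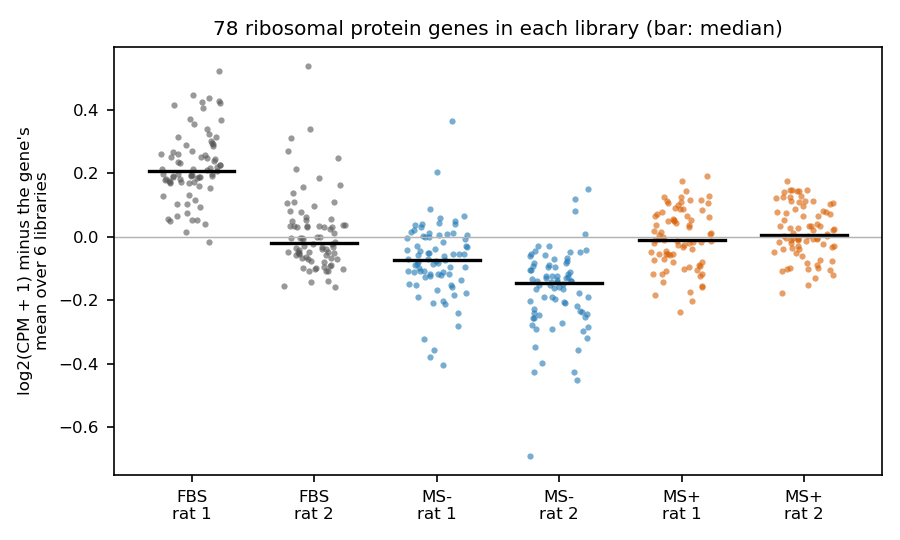
Each point is 1 of 78 ribosomal protein genes, plotted as its log2(CPM + 1) minus the gene's mean over the 6 libraries (y axis), in each library (x axis; grey FBS, blue MS-, orange MS+), with the median as a black bar. The cloud of the FBS library of rat 1 lies highest, with a median of 0.21, and that of the MS- library of rat 2 lowest, with a median of -0.15.

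The comparison of MS- with FBS asked how the cells' transcripts in rat serum of untreated animals differed from those in standard culture. Ribosomal protein genes lay lower in MS-, with a median log2 fold change of -0.20, or 87% of the FBS level, where the median of all 9820 features tested was 0.01. Of the 78 members, 76 had a fold change below 0, 63 were lower in MS- in the cells of both rats, and none was higher in both. Over all 9820 features, 3356 were lower and 3794 higher in both rats. The members' median difference was -0.28 in rat 1 and -0.13 in rat 2. Both MS- libraries lay below both FBS libraries for 47 members (60.3%), while this held for 24.5% of all features, and no member lay above in the same way (27.1% of all features). The counts were alike for both subunits, with groups apart for 18 of 31 small subunit genes and 29 of 44 large subunit genes, and 0 of 3 P stalk genes.

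Single genes passed the test in MS- against FBS in 3 cases, all lower: Rpl10a, Rpl3 and Rps9 (limma, Benjamini-Hochberg adjusted p under 0.05 over all features). This is 3.85% of the members, against 4.81% of all features called in either direction and 2.72% called lower, so the share is near the background. With the rat as a block, 20 members were called lower and none higher, which is 25.6% of the members against 20.5% of all features in either direction and 9.63% called lower. Besides the 3 genes above, these held 17 others such as Rpl10, Rps4x, Rpl6 and Rpl22.

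Rpl10a, a protein of the stalk on the side of the large subunit where spent transfer RNA leaves (chr20:6569083-6571641 in rn4, plus strand), was at 145 and 119 CPM in FBS, 76.8 and 73 CPM in MS-, and 96.4 and 108 CPM in MS+. The 3 sera did not overlap, with MS+ between the other sera. Its log2 fold change was -0.80 ± 0.12 (SE) in MS- against FBS (limma adjusted p = 0.0181).

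Rpl3, a large protein that reaches towards the peptidyl transferase centre (chr7:118314533-118319911 in rn4, minus strand), was at 523 and 512 CPM in FBS, 323 and 301 CPM in MS-, and 383 and 440 CPM in MS+. Again the sera did not overlap and the order was FBS, MS+, MS-. The log2 fold change of MS- against FBS was -0.73 ± 0.10 (SE; limma adjusted p = 0.0138), from 3195 and 3091 reads in FBS to 1766 and 1663 reads in MS-.

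Rps9, among the first proteins to bind the small subunit's RNA (chr1:63824657-63828046 in rn4, minus strand), was at 149 and 137 CPM in FBS, 86.2 and 90.2 CPM in MS-, and 103 and 112 CPM in MS+. It followed the same order without overlap, and its log2 fold change in MS- against FBS was -0.69 ± 0.10 (SE; limma adjusted p = 0.0139). The starts of all 3 genes carry a pyrimidine run, of 7 bases in Rpl10a and Rps9 and of 5 in Rpl3. When a library of FBS or MS- was left out, Rpl3 was lost each time (adjusted p = 0.0617 to 0.108 in limma). Rpl10a and Rps9 were lost without FBS of rat 1, MS- of rat 1 or MS- of rat 2 (0.0827 to 0.118), and without FBS of rat 2 they were still called, at 0.0352 and 0.0485. The fold changes stayed between -0.94 and -0.63 in all of these.

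**Figure D3:**
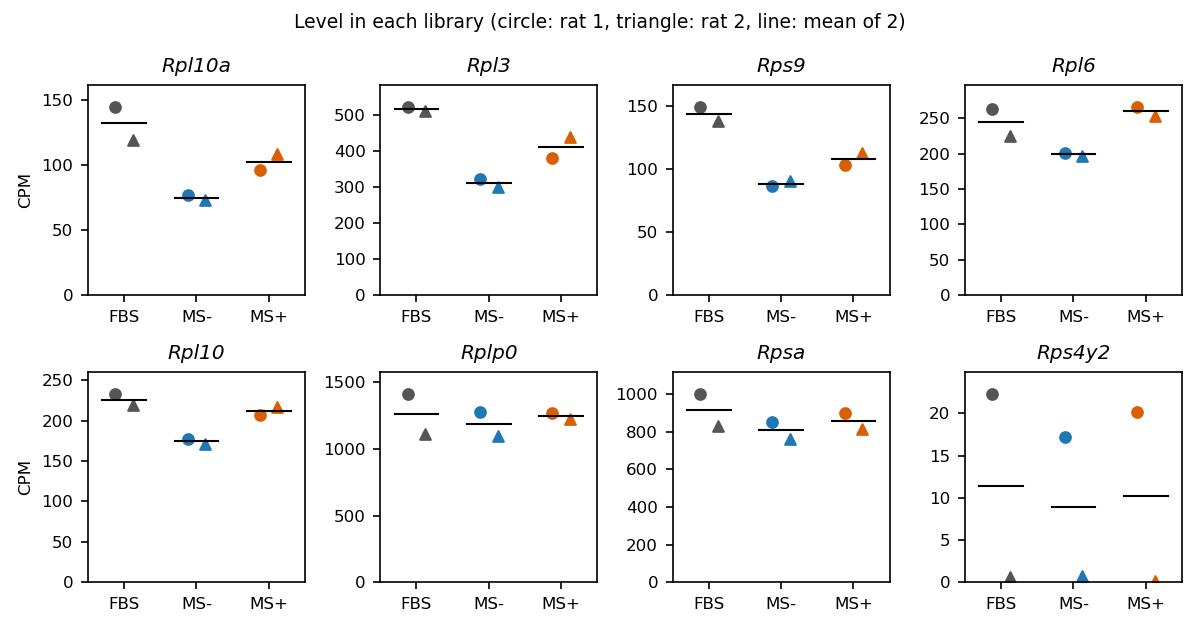
CPM (y axis, from 0, on its own scale in each panel) of 8 ribosomal protein genes in FBS, MS- and MS+ (x axis); the circle is rat 1, the triangle rat 2 and the line the mean of both, without an error bar. Rpl10a, Rpl3 and Rps9 step down from FBS to MS+ to MS-, Rpl6 is as high in MS+ as in FBS, the sera overlap for Rplp0 and Rpsa, and Rps4y2 is seen in rat 1 and is near 0 in rat 2.

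The next lowest fold change that moved alike in both rats was that of Rpl22l1, a paralog of Rpl22, at -0.68 ± 0.25 (SE; limma adjusted p = 0.179). It rests on few reads, 21 and 27 in FBS and 13 and 10 in MS-. Members with a pyrimidine run of 5 or more at their start had a median log2 fold change of -0.23 in MS- against FBS (34 genes), and those without one of -0.17 (29 genes). The ranges were -0.80 to -0.01 and -0.68 to 0.03, so the lists overlap widely.

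The FBS library of rat 1 bears on the size of this difference. Without it, the members' median in MS- against FBS was -0.11, with 61 of 78 below 0. Without the FBS library of rat 2 the median was -0.32, with 78 of 78 below 0. The members' median was below that of all features in both cases, which was 0.02 and 0.01.

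The comparison of MS+ with FBS gave smaller differences. The median log2 fold change of the 78 members was -0.11, or 92.9% of FBS, with 62 genes below 0 and 16 above, and the median of all features was 0.00. The rats differed here: the members' median was -0.22 in rat 1 and 0.02 in rat 2. Both MS+ libraries lay below both FBS libraries for 27 members (34.6%, against 28.3% of all features) and above them for 4 (5.13%, against 28.4%). Without the FBS library of rat 1 the median was 0.01, with 41 members above 0 and 37 below, and without that of rat 2 it was -0.21, with 9 above and 69 below. The direction of the members as a whole in MS+ against FBS therefore changes with a single library.

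**Figure D4:**
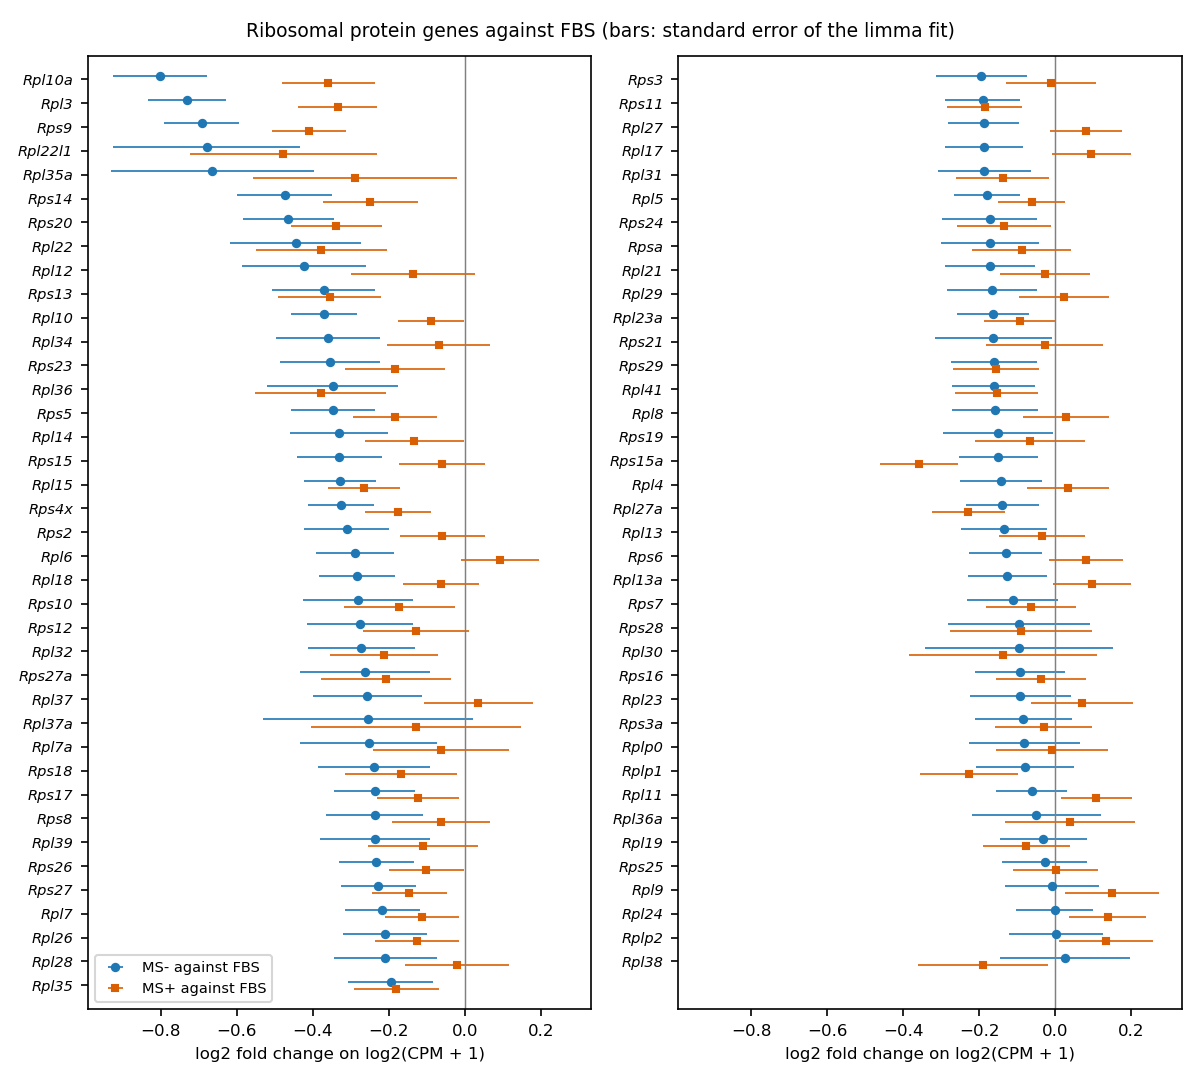
Log2 fold change on the log2(CPM + 1) scale (x axis) of 77 of the 78 ribosomal protein genes tested (y axis, ordered by MS- against FBS, first column then second), as blue circles for MS- against FBS and orange squares for MS+ against FBS; bars are standard errors of the limma fit, and both comparisons share the FBS libraries. Rpl10a, Rpl3 and Rps9 head the list at -0.80, -0.73 and -0.69, and their values in MS+ are -0.36, -0.33 and -0.41.

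Rps9 was the 1 member to pass the test in MS+ against FBS, at -0.41 ± 0.10 (SE; limma adjusted p = 0.0473). That is 1.28% of the members, below the 9.61% of all features called in either direction and the 4.66% called lower. The call was lost in limma when any 1 of the 6 libraries was left out (adjusted p = 0.0847 to 0.214), and its fold change then lay between -0.47 and -0.35. With the rat as a block, 8 members were called lower and 0 higher (10.3%, against 28.2% of all features in either direction and 13.9% lower), so the share called is below the background. Among them were Rps9, Rpl3, Rpl10a, Rps20, Rps15a, Rpl15 and Rps13.

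The members that stood highest in MS+ against FBS, alike in both rats, were Rpl9 (0.15 ± 0.12), Rpl24 (0.14 ± 0.10), Rplp2 (0.13 ± 0.12) and Rpl17 (0.09 ± 0.10), all large subunit or stalk proteins with differences near their SE. Rpl17, which lines the tunnel through which the new chain leaves, was at 117 and 104 CPM in FBS, 102 and 92 CPM in MS-, and 118 and 118 CPM in MS+. At the other end stood Rps9, Rpl22l1 (-0.48 ± 0.25), Rpl36 (-0.38 ± 0.17) and Rpl22 (-0.38 ± 0.17). Of these, Rpl36 was at 29 and 21.6 CPM in FBS and 18.9 and 19.1 CPM in MS+, with adjusted p = 0.211 in limma.

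MS+ against MS- is the comparison of the study's main question, how cells in serum of stimulated animals differ from cells in serum of untreated ones. By the study's methods the MS- serum was drawn before therapy and the MS+ serum at day 18. Stimulation and time of sampling can therefore not be told apart in this comparison. Ribosomal protein genes lay higher in MS+, by a median log2 fold change of 0.13, or 109% of the MS- level, while the median of all features was -0.01. The fold change was above 0 for 71 members and below 0 for 7. In the cells of both rats, 48 were higher and 4 lower, with medians of 0.08 for rat 1 and 0.18 for rat 2. Over all 9820 features, 3195 were higher and 3346 lower in both rats. Both MS+ libraries lay above both MS- libraries for 43 members (55.1%), where 22.6% of all features did, and below them for 4 (5.13%, against 23.1%). Both lay above for 28 of 44 large subunit genes, 15 of 31 small subunit genes and 0 of 3 P stalk genes. The share was 68.2% for members at 100 CPM or more and 38.2% for those under 100 CPM. All features were not split by level, so the 22.6% is not matched for it. The members' median was 0.18 without the MS- library of rat 1 and 0.08 without that of rat 2, with 71 and 59 members above 0.

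**Figure D5:**
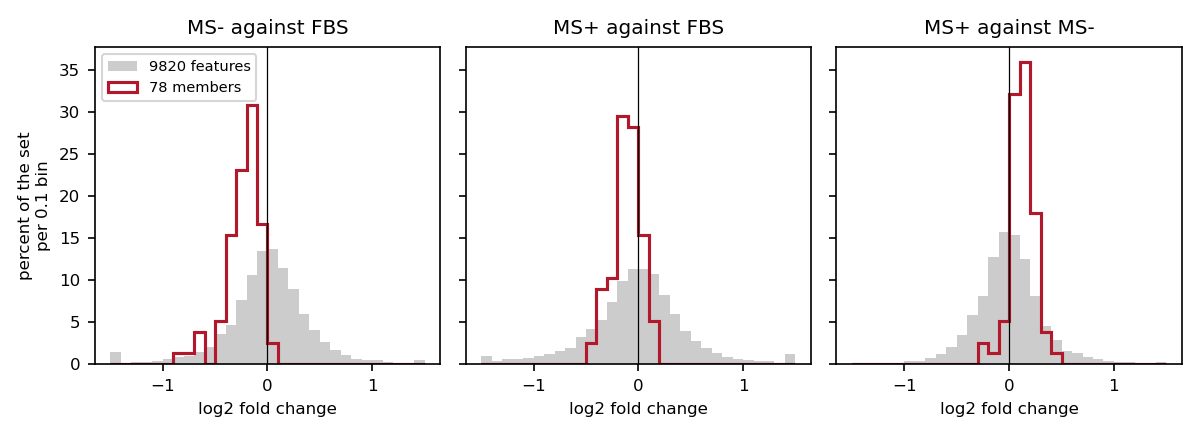
Share of genes (y axis, percent of the set per bin) by log2 fold change (x axis) for the 78 ribosomal protein genes (red line) and all 9820 features tested (grey) in the 3 comparisons; features beyond the axis are counted in the end bins. The members form a narrow peak beside 0, at a median of -0.20 in MS- against FBS, -0.11 in MS+ against FBS and 0.13 in MS+ against MS-, while all features spread wider around 0.

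No single member passed the test in MS+ against MS-, where limma called 0 of 78 (0.0204% of all features). At an unadjusted p under 0.05 there were 8 members, or 10.3%, with 14.7% of all features. EdgeR, DESeq2 and limma-voom also called 0 members, against 0.0305%, 1.26% and 0.0204% of all features. With the rat as a block, 4 large subunit genes were called higher and 0 lower (5.13% of the members, against 10.1% of all features in either direction and 5.27% higher), a share at the background. They were Rpl3 (0.40, adjusted p = 0.00923 in limma with the block), Rpl6 (0.38, 0.00924), Rpl10a (0.44, 0.0144) and Rpl10 (0.28, 0.0439).

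Rpl6 was at 201 and 197 CPM in MS- and 266 and 253 CPM in MS+, and its FBS libraries held 263 and 225 CPM. Its MS+ level thus overlapped with FBS and lay above both MS- libraries. Rpl10, which is added late to the large subunit and is needed for the subunit to become active, was at 178 and 171 CPM in MS- and 207 and 217 CPM in MS+, close under its FBS values of 232 and 219 CPM. Rpl37, which the RefSeq table of GRCr8 names Rpl37l1, had the fourth highest fold change among the genes that moved alike in both rats (0.29 ± 0.14). It was at 21.6 and 24.9 CPM in MS- and 28.6 CPM in both MS+ libraries.

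The 4 members lower in MS+ than in MS- in both rats were Rpl38 (-0.22 ± 0.17), Rps15a (-0.21 ± 0.10), Rplp1 (-0.15 ± 0.13) and Rpl27a (-0.09 ± 0.10), and their adjusted p was 0.422 to 0.728 in limma. Rps15a was at 45.7 and 46.8 CPM in FBS, 41.9 and 41.2 CPM in MS-, and 35.5 and 36.2 CPM in MS+. It ran without overlap from FBS through MS- to MS+, the lowest serum, and Rpl27a did likewise. Rpl27a was at 150 and 133 CPM in FBS, 129 and 127 CPM in MS-, and 121 and 119 CPM in MS+.

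By the criteria of the study (at least a 2-fold change at an unadjusted p under 0.05), 0 of the 78 members passed in any of the 3 comparisons. The largest difference was that of Rpl10a in MS- against FBS, at 0.80 on the log2 scale in size, and in MS+ against MS- no member exceeded 0.44. These criteria called 1.24% of all features in MS+ against MS-, 5.3% in MS+ against FBS and 3.62% in MS- against FBS.

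The P stalk genes did not move as a unit. Rplp0, the base of the stalk and the member of highest CPM, was at 1410 and 1116 CPM in FBS, 1281 and 1097 CPM in MS-, and 1273 and 1221 CPM in MS+. The sera overlapped, and its log2 fold changes were -0.08 ± 0.15 in MS- against FBS and 0.07 ± 0.15 in MS+ against MS-. Rplp1 was at 543 and 430 CPM in FBS, 479 and 436 CPM in MS-, and 422 and 405 CPM in MS+, lowest in MS+. Rplp2, its partner in the stalk, was at 85.3 and 74.3 CPM in FBS, 85.1 and 74.7 CPM in MS-, and 93 and 82.2 CPM in MS+, with overlap among all sera. CPM is not scaled for transcript length, so levels of different genes are not compared here.

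Of the other members of highest CPM, Rpsa, a small subunit protein first described as a laminin receptor, was at 999 and 830 CPM in FBS, 854 and 764 CPM in MS-, and 900 and 814 CPM in MS+, with overlap between every pair of sera. Rps6, the small subunit protein that is phosphorylated when growth signals reach S6 kinase, was at 504 and 447 CPM in FBS, 442 and 425 CPM in MS-, and 499 and 505 CPM in MS+. Its MS- libraries lay below the others, at a log2 fold change of -0.13 ± 0.10 against FBS. Rpl4 was at 471 and 449 CPM in MS- and at 477 CPM or more in every other library. None of Rpsa, Rps6 and Rpl4 passed the test in any of the 3 comparisons (limma), with or without the rat as a block.

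Among the paralogs, Rpl22l1 was at 3.44 and 4.48 CPM in FBS, 2.38 and 1.81 CPM in MS-, and 2.34 and 2.75 CPM in MS+. Its namesake Rpl22 was at 54.3 and 43.1 CPM, 40.1 and 31.1 CPM, and 35 and 39.3 CPM in the same order, so both lay lower in the rat sera than in FBS. Rpl3l, known from striated muscle as the counterpart of Rpl3, had 1 to 4 reads in each library, at or near the floor. Rpl36al was not a member by name, yet it was called higher in MS+ against FBS (0.43 ± 0.10, limma adjusted p = 0.0485), with 65 and 57 CPM in FBS and 82.9 and 81.9 CPM in MS+. Its namesake Rpl36a showed 0.04 ± 0.17 in that comparison, and the difference between them was not tested. Processed copies of ribosomal protein genes are common in the rat genome and can share their reads, so the level of each gene, and of close paralogs above all, is uncertain.

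Rps4y2, a paralog of Rps4x on chromosome 4 (chr4:185977395-185978328 in rn4, plus strand), set the rats apart. It was at 22.3 CPM in FBS, 17.2 CPM in MS- and 20.2 CPM in MS+ in the cells of rat 1 (136, 94 and 112 reads), and at 0.66, 0.72 and 0.18 CPM in those of rat 2 (4, 4 and 1 reads). Among all rows it was the 1 row at 10 CPM or more in all libraries of rat 1 and under 1 CPM in all of rat 2, while 2 rows, Mecom and Rbm20, showed the opposite. Rps4x itself was at 243 and 234 CPM in FBS, 196 and 184 CPM in MS-, and 214 and 208 CPM in MS+, with the rats close in each serum. Of the 78 members tested, none was called for a difference between the rats (limma, rat term, adjusted p under 0.05; 10.5% of all features), and 12 had an unadjusted p under 0.05. The rat of higher level depended on the serum: rat 1 was higher for 76 of 80 members in FBS, 63 in MS- and 36 in MS+.

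The mitochondrial ribosomal proteins, which build the separate ribosome of that organelle, gave a comparison. Their median log2 fold change (67 genes) was 0.01 in MS+ against MS-, -0.14 in MS+ against FBS and -0.10 in MS- against FBS. Their groups were apart, higher in MS+ than in MS-, for 19.4% of the genes, against the 55.1% of the cytosolic members. Of the lists described below, this share was 52.8% for ribosome assembly, 50% for other tract transcripts and 44.7% for translation factors. It was 33.3% for RNA polymerase I and Myc and 16.7% for mTOR and LARP1, beside 22.6% of all features. The difference between the lists was not tested. Mrpl13 was the 1 gene called, in MS+ against FBS, at 32.5 ± 0.99 CPM in FBS and 19 ± 0.65 CPM in MS+ (limma adjusted p = 0.0169).

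Factors of ribosome assembly (53 genes) had medians of 0.11 in MS+ against MS-, 0.08 in MS+ against FBS and -0.05 in MS- against FBS. In MS+ against MS-, 43 of 53 lay above 0 and 0 were called. Against FBS, 1 gene rose and 2 fell in MS+ (5.66% of the list, beside 9.61% of all features called). In MS-, 2 fell against FBS (3.77%, beside 4.81%). Gnl3, a nucleolar GTPase, rose to 56.7 ± 0.03 CPM in MS+ from 31.9 ± 1.34 CPM in FBS (limma adjusted p = 0.00911). Nop56, a core protein of the particles that methylate ribosomal RNA, fell to 40.5 ± 4.26 CPM in MS+ from 62.9 ± 5.26 CPM (limma adjusted p = 0.0272). Fbl, the methyltransferase of the same particles, fell to 26.8 ± 1.64 CPM in MS- (0.0323, limma) and 27.9 ± 2.29 CPM in MS+ (0.0287) from 44.4 ± 3.44 CPM in FBS, and Ebna1bp2 fell to 29.4 ± 1.94 CPM in MS- from 42.9 ± 0.20 CPM (0.0466, limma). With the rat as a block, 4 of these 53 genes were called higher and 0 lower in MS+ against MS-, 4 higher and 2 lower in MS+ against FBS, and 1 higher and 7 lower in MS- against FBS. These shares (7.55%, 11.3% and 15.1%) lie below those of all features (10.1%, 28.2% and 20.5%).

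In the list of RNA polymerase I and Myc (18 genes), which covers the transcription of ribosomal RNA, 1 gene was called. Rrn3, an initiation factor of this polymerase, rose to 124 ± 7.02 CPM in MS+ from 91.8 ± 1.27 CPM in FBS (limma adjusted p = 0.0421). That is 5.56% of the list, below the 9.61% of all features called. Myc, a transcription factor known to drive ribosome production, was at 30.4 and 33.3 CPM in FBS, 17.6 and 22.8 CPM in MS-, and 29.7 and 40.7 CPM in MS+. Its MS- libraries lay below all others, and its log2 fold changes were -0.65 ± 0.19 in MS- against FBS and 0.77 ± 0.19 in MS+ against MS-. Neither passed the test (limma adjusted p = 0.125 and 0.177), and both did with the rat as a block (0.00317 and 0.00226), as did 2 others of the list in MS- against FBS and 2 genes in MS+ against FBS (5.56% of the list in MS+ against MS-, 11.1% in MS+ against FBS and 16.7% in MS- against FBS, each below the share of all features).

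Translation factors (47 genes) had medians of 0.10 in MS+ against MS-, -0.03 in MS+ against FBS and -0.14 in MS- against FBS. Eif5b, which joins the subunits, was called higher than FBS in both rat sera, with 57.7 ± 0.64 CPM in FBS, 79.8 ± 1.13 CPM in MS- and 76.1 ± 3.95 CPM in MS+ (limma adjusted p = 0.045 and 0.0487). Eif4h, a cofactor of the helicase that unwinds messenger RNA, was called lower in MS+ against FBS (-0.36 ± 0.09, limma adjusted p = 0.0454). The calls were 2.13% of the list in MS- against FBS and 4.26% in MS+ against FBS, below the 4.81% and 9.61% of all features. Eif4b, another cofactor of that helicase, had the lowest p of the list in MS+ against MS-, at 206 ± 5.98 CPM in MS- and 298 ± 16 CPM in MS+ (limma adjusted p = 0.111, and 0.000885 with the rat as a block). Under the block, 3 of the 47 factors were called higher in MS+ against MS- and 0 lower, 4 higher and 4 lower in MS+ against FBS, and 2 higher and 9 lower in MS- against FBS. These are 6.38%, 17% and 23.4% of the list, against 10.1%, 28.2% and 20.5% of all features.

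Other transcripts known to carry the pyrimidine tract (18 tested) had medians of 0.11, -0.04 and -0.18 in MS+ against MS-, MS+ against FBS and MS- against FBS; this list shares Eif4b, Eef1a1, Eef2 and others with the translation factors. Hnrnpa1, a protein that binds RNA in the nucleus, was the 1 gene called, lower in MS- (-0.72 ± 0.14, limma adjusted p = 0.042) and in MS+ (-0.67 ± 0.14, 0.0349) than in FBS. That is 5.56% of the list each time, beside 4.81% of all features in MS- and 9.61% in MS+. Of the mTOR and LARP1 list (12 genes), 0 were called in any of the 3 comparisons by limma, with 4, 6 and 1 genes at an unadjusted p under 0.05 in the same order, where 14.7%, 27.5% and 21.1% of all features had one. Under the block 3, 5 and 1 were called, or 25%, 41.7% and 8.33% of the list, against 10.1%, 28.2% and 20.5% of all features. Mtor itself was at 71.7 to 74.8 CPM in FBS, 73.7 to 88.6 CPM in MS- and 73 to 74.5 CPM in MS+. Larp1 was not among the symbols measured, so the list holds no value for it.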

How the data were processed

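The authors had poly(A)-selected RNA of 6 libraries sequenced by a company, aligned the reads to the rat genome rn4 with bowtie2 (2.1.0 in the submitters' processing notes), counted reads per transcript with HTSeq (0.5.4p3, intersection-nonempty) and scaled library sizes by the TMM method of edgeR. The deposited values are this normalised signal in CPM. How reads with several matches were treated, and whether strand was used, is not given in the sources used here. HTSeq leaves out reads shared by overlapping transcripts. The rows of Rpl32 (over Cdca7l) and Rpl37a (over Rpl37a-ps1) overlap another symbol. These rows are short, 463 bases on chromosome 6 for Rpl32 and 360 bases on chromosome 5 for Rpl37a. Other rows of these genes were at 75.7 to 96.9 CPM for Rpl32 (chromosome 3) and at 0 to 1.28 CPM for Rpl37a (chromosome 9). The start window used for Rpl37a lies on chromosome 9.

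Division by what 1 read is worth gave whole reads for 100% of values in every library (tolerance 1e-06 reads); these served the count tests edgeR (4.0.16) and DESeq2 (1.42.0) as alternatives. On these reads edgeR's quasi-likelihood test called 3, 942 and 471 features in MS+ against MS-, MS+ against FBS and MS- against FBS. Floors of 3 reads cover counting error only.

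Features at 1 CPM or more in both libraries of a serum were kept (9820). Log2(CPM + 1) was fitted with limma 3.58.1 in R 4.3.3 (lmFit, eBayes with trend, two-sided) on all 6 libraries with serum as the only term, and p-values were adjusted by Benjamini-Hochberg over all features. Fold changes on this scale understate those of low genes. Scripts were tested on simulated data. The labels mark the libraries RA1 and RA2 in each serum, taken here as the cells of 2 rats, and the libraries were paired by this mark: the difference between rats correlated across features by 0.59, 0.49 and 0.62 between sera. Libraries of a serum differed beyond sampling noise (chi-square per degree of freedom 13.7 to 15.4).

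The members and lists were chosen with earlier results of these data known. Named were, per comparison, members past adjusted p 0.05, and the 4 highest and 4 lowest that moved alike in both rats; also the 5 of highest CPM, the P stalk, paralogs with their namesakes and, of other lists, the 2 genes of lowest p, and all that were called; the text gives the main ones. Genes listed under the block, Mtor and Eef1a1 stand outside that rule for their comparison and were picked with their values in view. Of the members, 77 were matched by accession to the RefSeq table of GRCr8. The names given are the deposited symbols, and the row deposited as Rpl37 is Rpl37l1 in that table. Protein sequences were not analysed here, and some genes that the rule names are not reported here.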

Additional observations from a re-analysis of the deposited data

How the results depend on the processing

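The members' medians kept their direction under another pseudocount (0.1), library totals or DESeq2 size factors in place of TMM, no filter on low values, summed rows per symbol, limma-voom, edgeR and DESeq2. Left-out libraries gave medians from -0.32 to -0.11 in MS- against FBS, -0.21 to 0.01 in MS+ against FBS and 0.08 to 0.18 in MS+ against MS-. The number of members called moved more. In MS- against FBS, 3 became 20 with the replicate block (limma, edgeR and limma-voom alike), 4 with DESeq2, and 0 to 3 when a library was left out. In MS+ against FBS, 1 became 8 with the block, 9 with the block in edgeR or in limma-voom, and 0 with DESeq2, without the filter, and with any library left out. In MS+ against MS-, 0 became 4 with the block in limma or limma-voom and 3 in edgeR, and stayed at 0 when a library was left out. The share of all features called moved as well. With the block in limma it went from 4.81% to 20.5% in MS- against FBS. It went from 9.61% to 28.2% in MS+ against FBS and from 0.0204% to 10.1% in MS+ against MS-. DESeq2 called 5.58%, 8.37% and 1.26% of all features in the same order. The cause of these changes was not tested, and left-out libraries also mean fewer samples in the fit. With library totals, which put the median of all features at -0.045 in MS+ against FBS, all 78 members lay below 0 in MS- against FBS, and fold changes near 0 changed sign: -0.016 for Rpl4 and -0.00662 for Rpl36a in MS+ against FBS, and -0.029 for Rplp2 in MS- against FBS, which was -0.00936 with DESeq2 and -0.00858 with its size factors. Leaving out single libraries turned the sign of further small fold changes. In MS+ against MS- these ranged from -0.039 to 0.18 for Rplp0, -0.11 to 0.246 for Rpl22 and -0.011 to 0.18 for Rpl26. In MS+ against FBS they ranged from -0.18 to 0.16 for Rplp0, -0.22 to 0.045 for Rpsa, -0.060 to 0.13 for Rpl4, -0.0053 to 0.17 for Rps6 and -0.049 to 0.12 for Rpl36a. In MS- against FBS they ranged from -0.25 to 0.087 for Rplp0, -0.25 to 0.086 for Rplp1, -0.097 to 0.10 for Rplp2 and -0.14 to 0.037 for Rpl36a. Few reads limit Rpl22l1, Rpl37a and Rpl3l in every library, and Rps4y2 in the libraries of rat 2 only.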

Other observations

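Of the ribosomal protein genes outside the name rule, Gnb2l1, which encodes the small subunit protein Rack1, was at 640 and 527 CPM in FBS, 473 and 477 CPM in MS-, and 606 and 549 CPM in MS+ (rat 1, then rat 2). Both MS- libraries lay below all others, at a log2 fold change of -0.29 ± 0.12 (SE) against FBS (limma adjusted p = 0.23, and 0.0257 with the rat as a block). Fau, which encodes Rps30 fused to a protein like ubiquitin, was listed at 0 reads in all 6 libraries, although its product is a part of every cytosolic ribosome.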
